A study of Mus musculus with 18 samples.

Results

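The colony-stimulating factors and their receptors were followed in mouse BMDMs, macrophages grown in culture from bone marrow cells, across 18 RNA-seq libraries. The members were taken by gene name from the count table and number 8 of the 21734 protein-coding genes it lists: the factor genes Csf1, Csf2 and Csf3 and the receptor genes Csf1r, Csf2ra, Csf2rb, Csf2rb2 and Csf3r. The mice were miR-146 wild-type (WT), miR-146 knockout (KO) or homozygous for a miR-146 allele named 3'F, written 3F here, whose microRNA keeps its 5′ part and carries another 3′ part. All were of a mixed 129/B6 strain, with 3 mice of each genotype, and 6 to 7 months old by the labels, whereas the study's methods give a younger age for the mice of its mass spectrometry, which took another fraction of the same replicates. Marrow from every mouse was cultured for 8 to 9 days in medium with 10 ng/ml M-CSF, the protein that Csf1 encodes, so each group had been exposed to a Csf1r ligand. BMDMs were then left resting or given 1 ng/ml LPS, a bacterial cell wall component sensed by TLR4, and harvested after 16 h, which makes 6 groups of 3 libraries. The microRNA itself is not a protein-coding gene and was not analysed here, so the deletion could not be checked from the counts.

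Colony-stimulating factors are secreted proteins that drive the growth, survival and activation of myeloid cells. M-CSF acts through Csf1r, a receptor tyrosine kinase that macrophages depend on for survival. GM-CSF, from Csf2, is bound by the alpha chain Csf2ra together with the common beta chain Csf2rb, which also serves the receptors for IL-3 and IL-5, while the mouse has a second, IL-3-specific beta chain in Csf2rb2. G-CSF, from Csf3, acts through Csf3r, best known in neutrophils and their precursors. LPS is a classical inducer of Csf2 and Csf3 in macrophages, and miR-146a is known as a brake on TLR4 signalling.

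Total counts ran from 4071084 to 19818043 per library, with the lowest in resting 3F replicate 3. Macrophage markers were high in every library, at a summed level of 29900 to 84000 counts per 1000000 of scaled library size (CPM), and none of the 7 was at 0. Of the 11 neutrophil markers, the defining Ly6g was at 0 in 14 of 18 libraries. The neutrophil sum was 39.9 to 54.6 CPM in resting WT, 64.7 to 120 CPM in resting KO and 46.6 to 96.5 CPM in resting 3F, carried mainly by S100a8 and Mmp8. Dendritic cell markers summed to at most 4.45 CPM, mast cell markers to at most 1.17 CPM and lymphocyte markers to at most 1.40 CPM. The 7 stromal markers summed to 0.657 to 3.96 CPM in resting WT, to 3.98 to 5.79 CPM in WT with LPS and to 11.5 CPM in resting KO replicate 3, where Acta2 alone stood at 9.88 CPM. Resting KO replicate 3 and resting 3F replicate 3 stood apart from their groups for several members, so calls of members that were lost without them are given with and without them.

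The mature microRNA and the strand of the mimic that the study built for the altered allele are shown because they define the 3 genotypes. The seed, bases 2 to 8, is in capitals.
mmu-miR-146a-5p: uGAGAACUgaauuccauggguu
3F mimic: uGAGAACUgaauaagugucc
The first 12 bases are shared and the sequences differ at each of the 8 positions from 13 to 20, counted from the 5′ end. The first comes from RefSeq (GRCm38.p6), where it lies at chr11:43374435-43374456 on the minus strand, and the second from the study's list of oligonucleotides.

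Matches to this seed were sought in the longest annotated 3′ UTR of each member (mm10). Csf2rb and Csf2rb2, which lie next to each other in opposite orientation at chr15:78325752-78353847 and chr15:78282507-78305721, each held 2 matches at matching places, shown here with the pairing bases in capitals.
Csf2rb, first match: agctgttcgttAGTTCTCcctcca
Csf2rb2, first match: agctgttcattcGTTCTCcctcca
Csf2rb, second match: ttacctcattctGTTCTCActgga
Csf2rb2, second match: ttacctcattctGTTCTCActgga
The first pair lies at chr15:78350033-78350056 on the plus strand and chr15:78283425-78283448 on the minus strand, and the second at chr15:78350164-78350187 and chr15:78283294-78283317. In Csf2rb the first match is a 7mer-m8, pairing with bases 2 to 8, and in Csf2rb2 it is a 6mer, pairing with bases 2 to 7. The second match is a 7mer-A1 in both, a 6mer followed by an A, in a window of 24 identical bases.

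Csf1 held 2 such 6mers in a 3′ UTR of 2111 bases, and Csf3 held 1 in 669 bases.
Csf1, first match: atccgtccgaatGTTCTCccactt
Csf1, second match: cttctgacctttGTTCTCcagacc
Csf3: cttccgagttttGTTCTCctgctt
These lie at chr3:107742286-107742309 and chr3:107741827-107741850 on the minus strand and at chr11:98703087-98703110 on the plus strand. The 3′ UTR of Csf1r, of 1669 bases, held a 7mer-A1 and a 7mer-m8, whereas none was found in those of Csf2, Csf2ra and Csf3r. Over all 20788 genes with a 3′ UTR, 18.2% held a 7mer or 8mer and 29.7% a 6mer or better. A match is a description of the sequence and was not tested as a site of action. Per the paper, the related miR-146b differs from miR-146a by 2 bases in its 3′ region and was left intact in KO. Its small RNA sequencing hinted at more miR-146b in KO BMDMs, so KO does not remove every microRNA with this seed.

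Among the members, Csf1r was by far the most abundant in every group, and the 3 factor genes were the least abundant. Csf2ra lies at chr19:61223957-61228429 and Csf3r at chr4:126024550-126044440 (mm10). Levels of different genes are given per length, as CPM per kb of the exon length in the table. In resting WT, Csf1r stood at 372 ± 56.4 CPM per kb (SD, n = 3), Csf2ra at 51.8 ± 4.92, Csf2rb at 29.5 ± 9.84, Csf2rb2 at 13.1 ± 4.30 and Csf3r at 7.15 ± 0.987. Csf1 stood at 0.270 ± 0.152 CPM per kb and Csf3 at 0.0228 ± 0.0395, while Csf2 had no count in this group. By count, Csf1r ranked between the 14th and the 38th gene in 17 libraries, with 0.162% to 0.357% of all counts, and 103rd with 0.104% in resting 3F replicate 3.

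With LPS, Csf2rb stood second in each genotype per kb, at 98.9 ± 4.16 CPM per kb in WT, above Csf2ra at 69.8 ± 4.42. In KO with LPS the same values were 142 ± 15.5 and 68.7 ± 3.80. This order depends on the length used, because the table gives Csf2rb 1835 bases, which equals its 14-exon transcript of 4764 bases without the last exon of 2929 bases, where the annotation also places Mir7676-2. With the 7277 bases of all its annotated exons, Csf2rb fell to 24.9 CPM per kb in WT with LPS, below Csf2ra at 45.0. The order of the beta chains and Csf3r is likewise open, since Csf2rb2 has 1749 bases in the table and 4740 in the annotation. Csf1r in first place and Csf1 in sixth held with each length and without division by length.

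The 2 beta chain genes are near copies: their main transcripts had 94% identical bases over 4522 aligned, and 18.9% of the 50-base windows of Csf2rb occurred in Csf2rb2. The study counted only reads placed with high certainty, so reads of the shared stretches may be missing from both. How many were lost is uncertain, and their values are best read together. Whether reads of the last exons were counted could not be told from the table, so the counts of both genes, and the ratios built on them, may lack those exons.

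**Figure D1:**
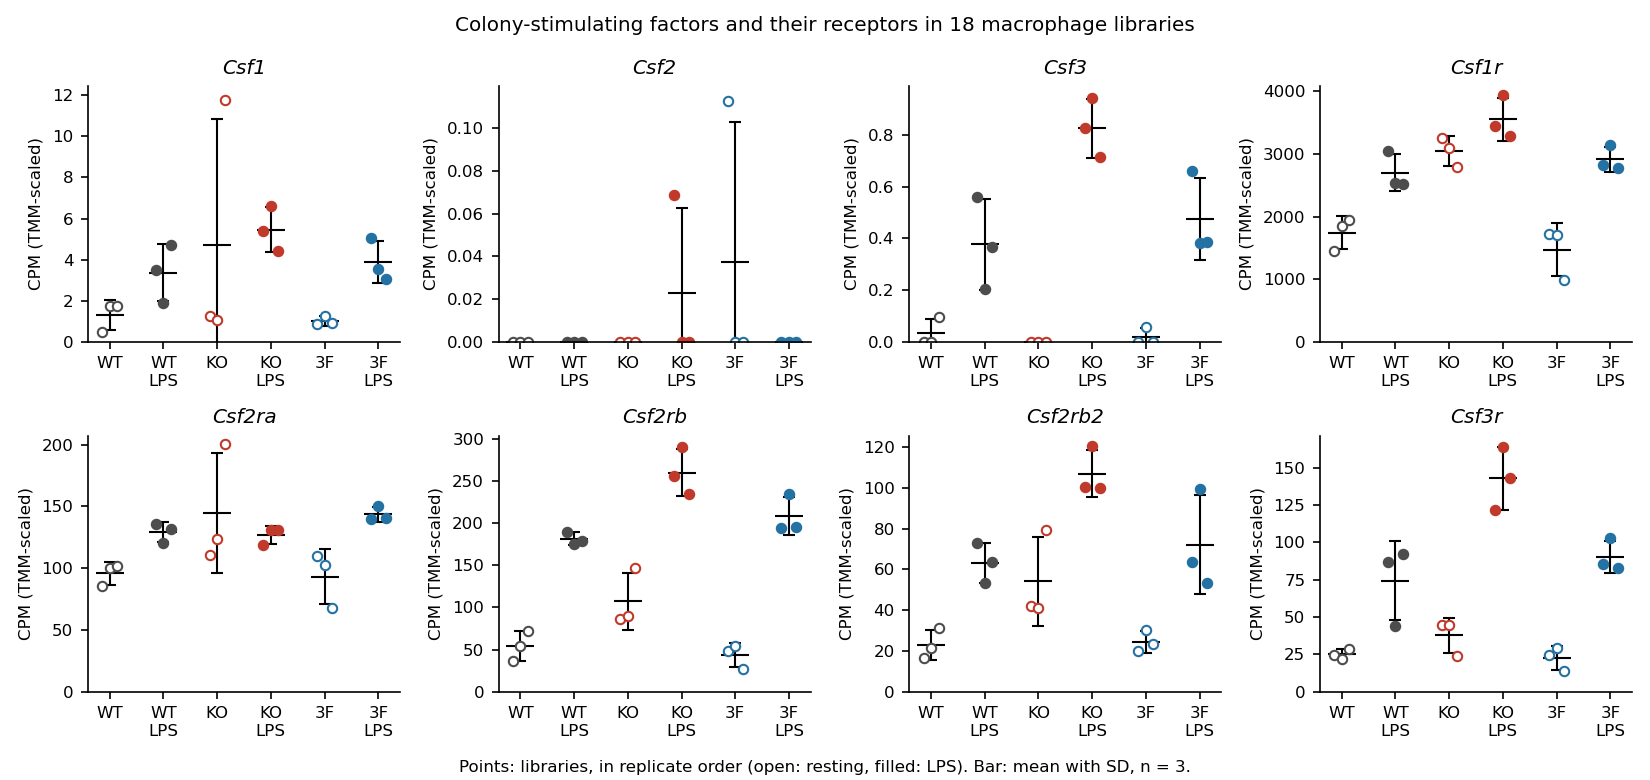
CPM of each of the 8 members (vertical axis, TMM-scaled, each panel from 0) in the 6 groups, with 1 point per library and bars for the mean and SD of 3 libraries, cut off at 0 where the SD is larger than the mean. Csf2rb, Csf2rb2 and Csf3r stand higher with LPS in every genotype, and resting KO replicate 3 stands apart for Csf1 at 11.8 CPM and Csf2ra at 201 CPM.

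The LPS response asked which members changed within a genotype. The common and IL-3-specific beta chains and the G-CSF receptor rose with LPS in all 3 genotypes, by 1.98-fold to 4.76-fold. The M-CSF receptor rose in WT and 3F, and the GM-CSF alpha chain rose in 3F. Of the 6 members that passed the filter on low counts (Csf2 and Csf3 did not), 4 were called higher in WT, where 16.3% of all 11357 genes tested were called higher, 3 in KO, against 14.3%, and 5 in 3F, against 17.2%. None was called lower. Every LPS library was above every resting library for 6 of 6 members in WT, against 25.9% of all genes, for 4 in KO, against 23.8%, and for 6 in 3F, against 25.1%.

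Csf2rb, the signalling chain of the GM-CSF, IL-3 and IL-5 receptors, stood at 35.9, 54.2 and 72.0 CPM in resting WT replicates 1 to 3 and at 190, 175 and 179 CPM with LPS. In KO it stood at 86.2, 89.8 and 147 CPM at rest and at 256, 291 and 234 CPM with LPS. In 3F the values were 48.6, 53.9 and 26.9 CPM at rest and 195, 235 and 196 CPM with LPS. The groups did not overlap in any genotype. The log2 fold change was 1.75 ± 0.26 (SE) in WT (adjusted p = 0.000138), 1.28 ± 0.26 in KO (adjusted p = 0.00149) and 2.25 ± 0.27 in 3F (adjusted p = 1.39e-05). These are by edgeR's quasi-likelihood test with Benjamini-Hochberg adjustment as throughout. With single libraries left out, the value in 3F ran from 1.98 to 2.44 and stayed called.

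Csf2rb2, the IL-3-specific beta chain, stood at 16.4, 21.4 and 31.1 CPM in resting WT and at 72.9, 53.2 and 63.8 CPM with LPS. Its log2 fold change was 1.47 ± 0.29 in WT (adjusted p = 0.00141), 0.99 ± 0.28 in KO (adjusted p = 0.0161) and 1.56 ± 0.29 in 3F (adjusted p = 0.000873). The KO libraries ran from 41.0 to 79.4 CPM at rest and from 100 to 120 CPM with LPS, again without overlap. The KO call was lost when KO replicate 2 with LPS, resting KO replicate 1 or resting KO replicate 2 was left out, with adjusted p between 0.0734 and 0.0804.

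Csf3r, the G-CSF receptor, stood at 24.6, 21.8 and 28.7 CPM in resting WT and at 86.5, 43.9 and 92.4 CPM with LPS. In KO it stood at 44.7, 44.5 and 23.9 CPM at rest and at 122, 164 and 143 CPM with LPS, and in 3F at 24.3, 29.1 and 13.6 CPM against 85.8, 103 and 83.0 CPM. The log2 fold change was 1.57 ± 0.29 in WT (adjusted p = 0.000856), 1.92 ± 0.29 in KO (adjusted p = 0.000143) and 1.98 ± 0.30 in 3F (adjusted p = 0.00013). With single libraries left out, the value in 3F ran from 1.72 to 2.21 and stayed called. The LPS and resting libraries did not overlap in any genotype. The neutrophil markers had a median sum of 52.3 CPM at rest and 48.8 CPM with LPS in WT, of 86.6 and 93.1 CPM in KO and of 69.7 and 50.4 CPM in 3F. Within the WT sum, the mean of S100a8 was 10.5 CPM at rest and 23.2 CPM with LPS and that of Camp 0.283 and 2.13 CPM, whereas that of Mmp8 was 29.4 and 18.5 CPM. The part of neutrophils in the Csf3r counts was not tested.

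Csf1r, the M-CSF receptor, stood at 1443, 1848 and 1941 CPM in resting WT and at 3042, 2538 and 2514 CPM with LPS. In KO it was already at 3255, 3101 and 2786 CPM at rest and stood at 3439, 3936 and 3281 CPM with LPS. In 3F it went from 1727, 1699 and 992 CPM to 2819, 3143 and 2782 CPM. Csf1r rose in WT (log2 fold change 0.63 ± 0.18, adjusted p = 0.0166) and 3F (0.98 ± 0.18, adjusted p = 0.000826). It was not called in KO (0.22 ± 0.18, adjusted p = 0.402). With single libraries left out, the value in 3F ran from 0.73 to 1.12 and stayed called. The WT call was lost without WT replicate 1 with LPS, without resting WT replicate 1 and when counts were scaled by library size alone, with adjusted p of 0.0762, 0.0758 and 0.138. With that scaling the median log2 fold change of all genes was −0.26 to −0.21 in the LPS responses and −0.12 in KO against WT or 3F with LPS, in place of −0.01 to 0.02 with TMM, and Csf1r stood at 0.38 in the LPS response of WT and −0.07 in that of KO.

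Csf2ra, the ligand-binding chain of the GM-CSF receptor, changed less than the beta chains. It stood at 85.3, 100 and 102 CPM in resting WT and at 136, 120 and 131 CPM with LPS, without overlap, yet the log2 fold change of 0.43 ± 0.19 was not called (adjusted p = 0.106). In 3F it rose by 0.61 ± 0.19 (adjusted p = 0.0233), from 110, 102 and 67.7 CPM to 140, 151 and 141 CPM. Without resting 3F replicate 3 that call was lost (0.40, adjusted p = 0.107). In KO the log2 fold change was −0.19 ± 0.19 (adjusted p = 0.504), and it was 0.12 without resting KO replicate 3, which had 201 CPM against 111 and 124 CPM in the other two.

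A ratio within one library does not depend on how libraries are scaled. The summed counts of Csf2rb and Csf2rb2 were 0.613 to 1.02 times those of Csf2ra in resting WT and 1.85 to 1.94 times with LPS. The same ratio was 1.06 to 1.16 in resting KO and 2.55 to 3.14 in KO with LPS, and 0.623 to 0.824 in resting 3F and 1.77 to 2.22 in 3F with LPS. The ranges with and without LPS did not overlap in any genotype, and both KO ranges lay above those of WT in the same state. With 3 libraries against 3, an exact permutation test cannot give a p below 0.1, so the ratio is given as a description. The ratio of Csf2rb to Csf2rb2 itself ran from 1.16 to 3.68 over the 18 libraries.

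**Figure D2:**
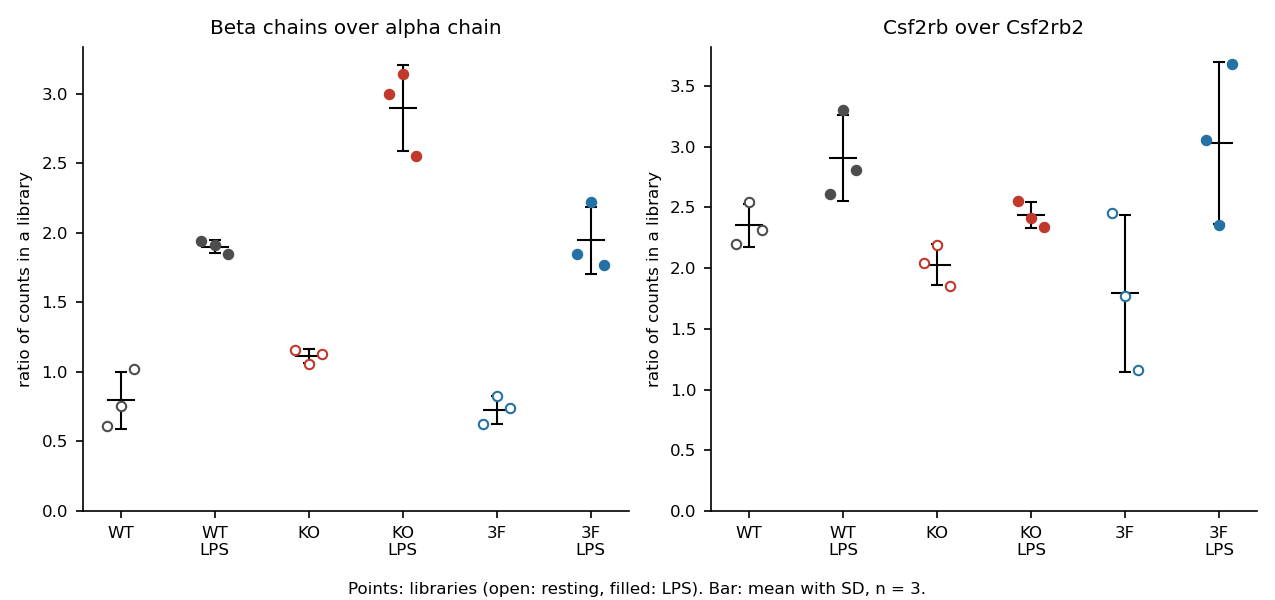
Ratio of counts within each library (vertical axis) for the summed beta chains over Csf2ra on the left and for Csf2rb over Csf2rb2 on the right, with 1 point per library in the 6 groups and bars for the mean and SD of 3 libraries. On the left the LPS libraries of each genotype lie above its resting libraries, and KO with LPS reaches 2.55 to 3.14.

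The factor genes were low throughout. Csf1 had 7, 23 and 18 counts in resting WT (0.460, 1.73 and 1.74 CPM) and 50, 28 and 64 counts with LPS (3.49, 1.91 and 4.69 CPM). The log2 fold change of 1.39 ± 0.74 in WT was not called (adjusted p = 0.179), and neither was that of 1.91 ± 0.78 in 3F (adjusted p = 0.0715), although the libraries did not overlap in either. DESeq2 called Csf1 higher in 3F (adjusted p = 0.0426), and limma voom with sample quality weights called it in all 3 genotypes. Over all 11357 genes limma voom called 5218 in WT, 6073 in KO and 5478 in 3F, and edgeR 3240, 3059 and 3546.

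In KO the Csf1 result turned on one library. Resting KO libraries had 20, 14 and 105 counts (1.24, 1.07 and 11.8 CPM) and KO libraries with LPS had 78, 91 and 62 counts (5.37, 6.59 and 4.42 CPM). The log2 fold change was 0.30 ± 0.66 (adjusted p = 0.777) with all libraries and 2.23 (adjusted p = 0.00125) without resting KO replicate 3. That library also had the highest sum of stromal markers, 11.5 CPM against 1.61 and 1.07 CPM in the other resting KO libraries. Acta2 alone made up 9.88 CPM of it, and the resting KO mean of each other stromal marker was at most 0.391 CPM. The part of stromal cells in the Csf1 count was not tested.

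Csf3, the G-CSF gene, had 8, 3 and 5 counts in WT with LPS, 12, 13 and 10 in KO with LPS and 9, 7 and 3 in 3F with LPS. At rest it had a single count in WT, none in KO and a single count in 3F. Scaled for depth, the summed counts with LPS were 14.6 times those at rest in WT (95% interval 2.27 to 611) and 18.8 times in 3F (2.99 to 780). In KO, with no count at rest, the same ratio had no upper limit and a lower 95% limit of 8.11. Set against 3 counts per resting library, Csf3 was at least 3.30-fold higher with LPS in KO, against 1.58-fold in WT and 1.37-fold in 3F. These intervals are exact binomial ones and cover counting error only. DESeq2, which does not apply the same filter, called Csf3 higher with LPS in WT (adjusted p = 0.0312), KO (adjusted p = 0.000261) and 3F (adjusted p = 0.0189).

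Csf2, the GM-CSF gene, was at 0 in 16 of 18 libraries, with 1 count in KO replicate 1 with LPS and 2 counts in resting 3F replicate 1. At the depth of these libraries, a count of 0 allows a level of up to 0.164 to 0.702 CPM. A change of Csf2 with LPS at 16 h was not detectable at this depth.

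**Figure D3:**
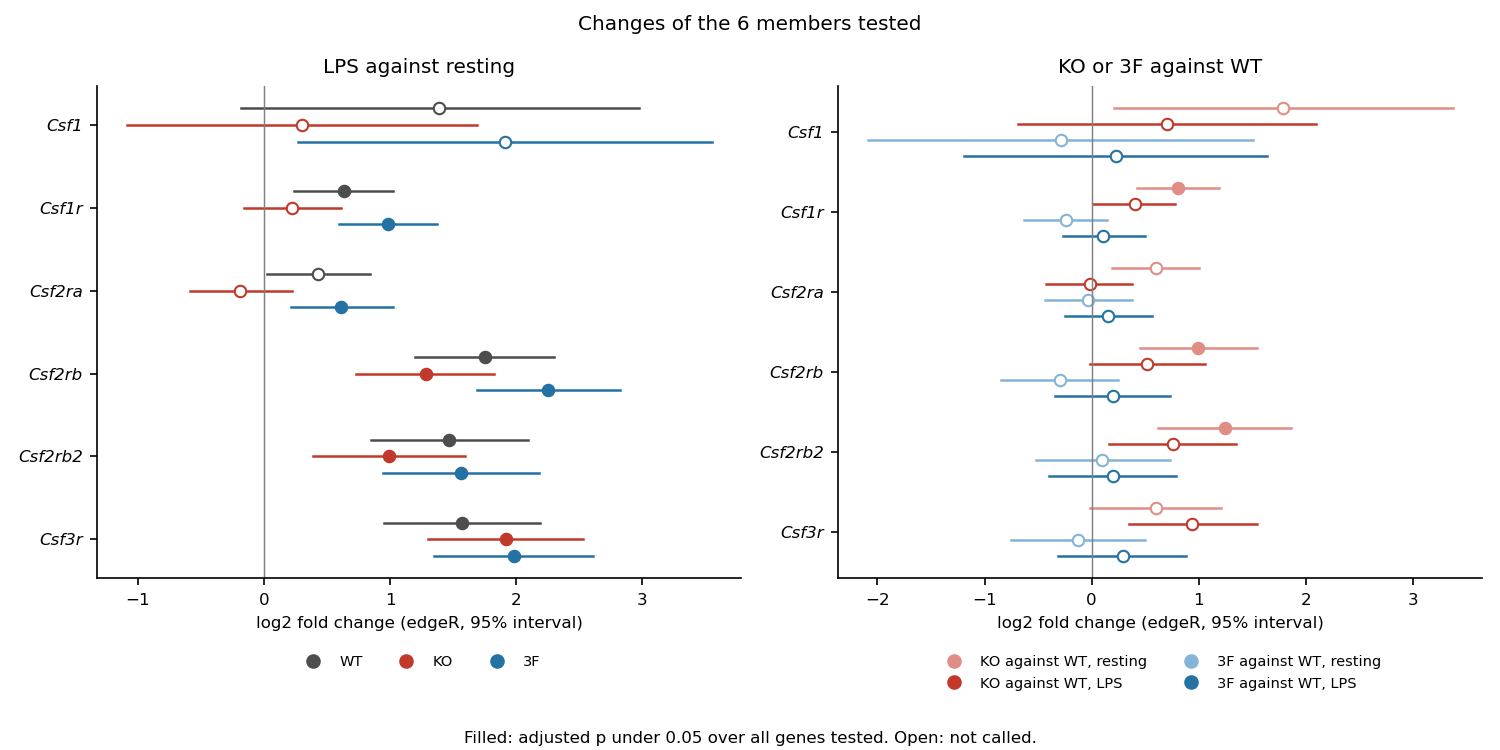
Log2 fold changes (horizontal axis, edgeR) with 95% intervals for the 6 members tested, on the left for LPS against resting in each genotype and on the right for KO and 3F against WT in each state, with filled points for an adjusted p under 0.05. With LPS, Csf2rb, Csf2rb2 and Csf3r are filled in all 3 genotypes, and against WT the filled points are Csf1r, Csf2rb and Csf2rb2 in resting KO.

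The comparison of KO with WT asked what the loss of miR-146a changed. At rest, Csf1r and both beta chains were higher in KO than in WT, by 1.75-fold to 2.36-fold. With LPS no member was called, although 4 receptor genes stood higher in every KO library. At rest 3 of 6 members were called higher, where 5.12% of all genes were, and none lower. Libraries did not overlap for 4 of 6 members, Csf1r, Csf2ra, Csf2rb and Csf2rb2, against 13.7% of all genes.

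Csf1r, at 3048 ± 239 CPM in resting KO and 1744 ± 265 CPM in resting WT, was higher by 0.81 ± 0.18 on the log2 scale (adjusted p = 0.0122). Leaving out the KO library that stood apart gave 0.87 and kept the call, and the call was lost without resting WT replicate 1 (0.68, adjusted p = 0.0631). The mean of resting KO was above that of WT with LPS, 2698 ± 298 CPM, with overlapping libraries. The summed macrophage markers stood at 57400 to 59700 CPM in resting KO and 29900 to 46400 CPM in resting WT, a sum made up mostly of Lyz2, with means of 53900 and 35200 CPM. Of the other markers, Fcgr1 (526 against 152 CPM), Cd14 (1050 against 758 CPM) and Mertk (89.4 against 65.3 CPM) had a higher mean in resting KO, Adgre1 was nearly level at 1580 against 1540 CPM, and Cd68 (867 against 936 CPM) and Itgam (150 against 245 CPM) had a lower one. In bulk samples, more cells of a type and more RNA per cell cannot be told apart.

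In resting macrophages the log2 difference of KO from WT was 0.99 ± 0.26 for Csf2rb (adjusted p = 0.0239) and 1.24 ± 0.29 for Csf2rb2 (adjusted p = 0.0143). Both calls were lost without resting KO replicate 3 (0.71 and 0.87, adjusted p = 0.0951 and 0.0611), without resting WT replicate 1 and without resting WT replicate 2. When resting KO replicate 3 and resting 3F replicate 3 were both left out, a choice made after seeing the data, 5 members were called higher: Csf1r, Csf2ra (0.31, adjusted p = 0.0355), Csf2rb, Csf2rb2 and Csf3r (0.86, adjusted p = 0.0251). Fitted with the resting KO and WT libraries alone, only Csf1r was called. Over all genes 396 of 10851 were called in that fit and 1669 of 11411 without both libraries, against 1067 of 11357 with all libraries.

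Csf2ra was not called with all libraries (0.60 ± 0.19, adjusted p = 0.0624), and came to 0.29 without resting KO replicate 3. Csf3r, at 37.7 ± 11.9 CPM in KO and 25.1 ± 3.46 CPM in WT, was not called (0.60 ± 0.29, adjusted p = 0.228), with resting KO replicate 3 at 23.9 CPM below both others. Csf1 gave 1.79 ± 0.75 (adjusted p = 0.156) and −0.13 without resting KO replicate 3.

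**Figure D4:**
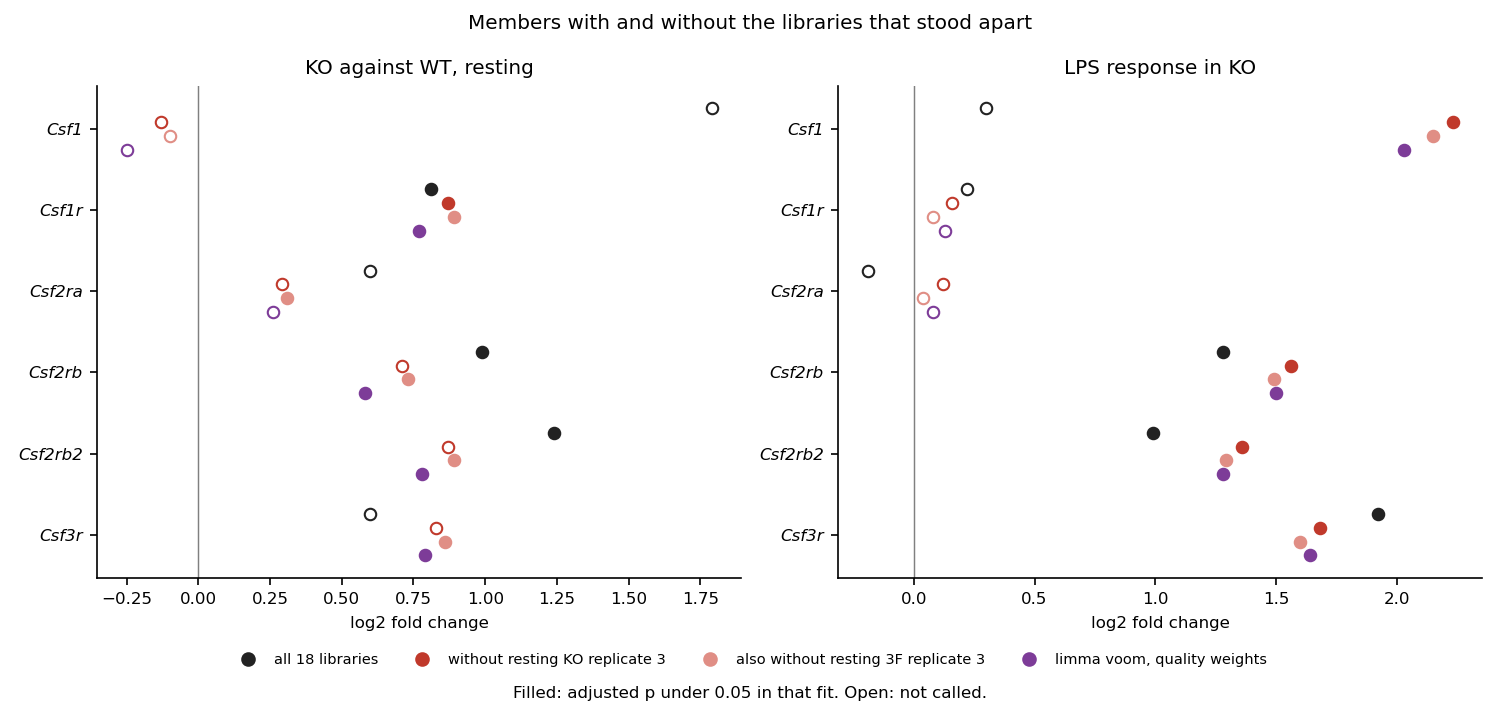
Log2 fold changes (horizontal axis) of the 6 members in resting KO against WT on the left and in the LPS response of KO on the right, from 4 fits: all 18 libraries, without resting KO replicate 3, also without resting 3F replicate 3, and limma voom with sample quality weights, with filled points for an adjusted p under 0.05. Csf1 moves from 1.79 to −0.13 on the left and from 0.30 to 2.23 on the right when that KO library is left out, whereas Csf1r stays between 0.77 and 0.89 on the left.

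With LPS, 0 of 6 members were called between KO and WT by edgeR, where 4.79% of all genes were, and 3 had an unadjusted p under 0.05. DESeq2 called 1, Csf3r, and limma voom with quality weights called 3, Csf2rb, Csf2rb2 and Csf3r. Both tools called more of all genes as well, 912 of 11817 by DESeq2 and 1777 of 11357 by limma voom, against 544 by edgeR. Every KO library was above every WT library for Csf1r, Csf2rb, Csf2rb2 and Csf3r, 4 of 6, against 16.9% of all genes. The largest difference was that of Csf3r, at 122 to 164 CPM in KO and 43.9 to 92.4 CPM in WT, a log2 difference of 0.94 ± 0.28 (adjusted p = 0.0647). The neutrophil markers summed to 62.2 to 97.2 CPM (median 93.1) in KO with LPS and to 48.2 to 66.0 CPM (median 48.8) in WT with LPS, and their part in this difference was not tested. Csf2rb2 gave 0.76 ± 0.28 (adjusted p = 0.143), Csf2rb 0.52 ± 0.25 (adjusted p = 0.297) and Csf1r 0.40 ± 0.18 (adjusted p = 0.262). Csf2ra was nearly level at −0.02 ± 0.19, with a 95% interval of −0.43 to 0.38.

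The comparison of 3F with WT asked what the altered 3′ part changed. No member was called in either state by edgeR, DESeq2 or limma voom, and none had an unadjusted p under 0.05. Over all genes 0% were called at rest and 0.00881% with LPS. At rest the libraries of every tested member overlapped. With LPS Csf2ra stood at 140 to 151 CPM in 3F and 120 to 136 CPM in WT (0.15 ± 0.19 on the log2 scale). Csf2rb stood at 195 to 235 CPM in 3F and 175 to 190 CPM in WT (0.20 ± 0.25). The share of all genes without overlap was not computed for this comparison, so no result is read from these ranges. The log2 differences of the receptor genes ran from −0.30 to 0.10 at rest and from 0.11 to 0.29 with LPS, and the 95% interval of Csf1r was −0.63 to 0.14 at rest and −0.27 to 0.50 with LPS. For Csf2rb it was −0.85 to 0.25 and −0.34 to 0.73. With LPS these intervals include the differences that KO showed from WT, 0.40 for Csf1r and 0.52 for Csf2rb.

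KO was also set against 3F, with the same KO libraries as before. At rest 4 of 6 members were called higher in KO, Csf1r (1.05 ± 0.18, adjusted p = 0.00421), Csf2rb (1.29 ± 0.26, adjusted p = 0.00757), Csf2rb2 (1.14 ± 0.29, adjusted p = 0.0212) and Csf2ra (0.63 ± 0.19, adjusted p = 0.0423), where 6.79% of all genes were called higher. The same 4 did not overlap, against 15.8% of all genes. Without resting 3F replicate 3, and also without both libraries that stood apart, 2 remained called, Csf1r and Csf2rb. Over all genes 735 of 11433 and 749 of 11411 were called in these fits, against 1464 of 11357 with all libraries. Without resting KO replicate 3 the calls of Csf2ra (0.32, adjusted p = 0.184) and Csf2rb2 (0.76, adjusted p = 0.0827) were lost. Fitted with the resting KO and 3F libraries alone, all 4 calls were lost. The log2 differences were 0.62 to 1.30 and the adjusted p 0.14 to 0.32. Over all genes 16 of 10944 were called in that fit. The Csf2ra call was also lost with a replicate block (adjusted p = 0.0655), with scaling by library size alone (adjusted p = 0.054) and by limma voom (0.20, adjusted p = 0.134). With LPS 0 of 6 were called by edgeR, where 3.88% of all genes were, and 1 had an unadjusted p under 0.05 (Csf3r). DESeq2 called 0 and limma voom 1, where over all genes they called 778 of 11434 and 1842 of 11357. Csf1r, Csf2rb2 and Csf3r stood higher in every KO library with LPS, 3 of 6, against 19.4% of all genes. Csf2ra, at 119 to 131 CPM in KO with LPS and 140 to 151 CPM in 3F with LPS, was not called (−0.18 ± 0.19, adjusted p = 0.727).

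Whether the LPS response itself differed between genotypes was tested by interactions. None of 6 members was called by edgeR, DESeq2 or limma voom for KO against WT, where 0.00881% of all genes were called by edgeR, or for 3F against WT, where 0% were. For KO the lowest unadjusted p was that of Csf2ra, with an interaction of −0.62 ± 0.27 on the log2 scale (adjusted p = 0.934), and no other member had an unadjusted p under 0.05. Csf1r gave −0.41 with a 95% interval of −0.95 to 0.14. The call of Csf1r in WT and not in KO is therefore not shown to be a difference between the genotypes.

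Relatives of the family were mostly near the floor. Of 9 related ligands and receptors, Il34 (the second ligand of Csf1r), Il3, Il5, Il5ra, Flt3 and Kit had at most 6 counts in any library and were not tested. Il3ra, the alpha chain that pairs with the beta chains to bind IL-3, stood at 17.9 ± 1.54 CPM in resting WT and 19.1 ± 2.61 CPM with LPS and was not called in any LPS response. Flt3l stood at 1.36 ± 0.488 and 1.70 ± 0.474 CPM and was not called either. Kitl, the ligand of the receptor Kit, fell with LPS from 26.1 ± 0.182 to 9.59 ± 2.06 CPM in WT (log2 fold change −1.45 ± 0.21, adjusted p = 0.000124). It fell in KO (−2.03 ± 0.23) and 3F (−1.77 ± 0.22) as well. With LPS Kitl was also lower in KO than in WT (−1.25 ± 0.23, adjusted p = 0.00582), as 2.9% of all genes were. At rest that difference was not called (−0.67 ± 0.21, adjusted p = 0.0559). Resting KO was lower than resting 3F (−0.71 ± 0.21, adjusted p = 0.0367), as 6.1% of all genes were.

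Of 21 genes that carry signals from these receptors, 10 rose and 1 fell with LPS in WT, 11 and 0 in KO and 13 and 0 in 3F. Over all genes 16.3% rose and 12.3% fell in WT, 14.3% and 12.6% in KO and 17.2% and 14.0% in 3F. Their median log2 fold change in WT was 0.34, and that of all genes 0.02. The kinase Src rose by 3.17 ± 0.32 (adjusted p = 3.33e-06) and Fgr, of the same kinase family, by 1.99 ± 0.27 (adjusted p = 6.67e-05). Jak2, the kinase bound to the common beta chain, rose by 1.60 ± 0.20 (adjusted p = 2.98e-05), from 64.3 ± 6.53 to 194 ± 38.8 CPM. Ptpn6, a phosphatase that dampens these receptors, rose by 1.08 ± 0.15 (adjusted p = 9.48e-05), and Pik3cd, a PI3-kinase subunit, by 1.06 ± 0.23 (adjusted p = 0.00267). In resting KO against WT 3 of the 21 were higher and none lower, against 5.12% and 4.27% of all genes, among them Fgr (1.57 ± 0.27, adjusted p = 0.003), whose call was lost with the compared groups alone (1.55, adjusted p = 0.0705).

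Of 12 tested genes known to respond to these cytokines or to restrain them, 4 rose and 3 fell with LPS in WT, 3 and 6 in KO and 4 and 5 in 3F, beside the shares of all genes given above. The feedback inhibitors Socs1 (3.96 ± 0.63, adjusted p = 0.000236) and Socs3 (3.67 ± 0.35, adjusted p = 1.55e-06) rose, while the growth factor-induced transcription factor Egr1 fell (−2.10 ± 0.61, adjusted p = 0.0172). The Egr1 call was lost without WT replicate 2 or 3 with LPS and without resting WT replicate 3, with adjusted p of 0.0643, 0.0767 and 0.0666. LPS is known to induce Socs genes by other routes too. Between KO and WT a single gene of the 12 was called, and only with LPS, where 4.79% of all genes were called in either direction. This was Ccnd1, which encodes the cell cycle protein cyclin D1, at a mean of 57.3 CPM in KO and 176 CPM in WT (−1.62 ± 0.16, adjusted p = 3.01e-05).

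Of 7 transcription factors known to act on the Csf1r gene, 3 rose and 1 fell with LPS in WT, where 16.3% and 12.3% of all genes did. Cebpb rose from 82.0 ± 15.9 to 200 ± 15.7 CPM (1.29 ± 0.16, adjusted p = 2.2e-05) and Cebpa fell from 111 ± 6.17 to 50.2 ± 2.88 CPM (−1.14 ± 0.16, adjusted p = 9.3e-05). In resting KO 1 of the 7 was called, Cebpb, which was higher, as 5.12% of all genes were. Of 4 tested genes of the protease system that cleaves Csf1r from the cell surface, 2 rose and 1 fell with LPS in WT, against the same shares of all genes. Adam17, the protease, rose by 1.04 ± 0.11 (adjusted p = 3.33e-06) and its partner Rhbdf2 by 1.02 ± 0.18 (adjusted p = 0.000577).

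The promoters of Csf3r and Csf2rb2, 2 receptor genes that rose with LPS in each genotype, are printed from RefSeq (GRCm38.p6) as 250 bases before and 50 after the annotated start. Capitals mark the match to a searched motif, AGAGGAA of PU.1 in Csf3r and TTCNNNGAA of STAT factors in Csf2rb2.
Csf3r: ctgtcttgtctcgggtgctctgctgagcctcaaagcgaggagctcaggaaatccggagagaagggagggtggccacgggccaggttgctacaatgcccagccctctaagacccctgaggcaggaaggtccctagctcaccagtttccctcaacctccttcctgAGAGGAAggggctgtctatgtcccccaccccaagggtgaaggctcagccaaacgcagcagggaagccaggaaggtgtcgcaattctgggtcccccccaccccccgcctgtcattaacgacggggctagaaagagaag
Csf2rb2: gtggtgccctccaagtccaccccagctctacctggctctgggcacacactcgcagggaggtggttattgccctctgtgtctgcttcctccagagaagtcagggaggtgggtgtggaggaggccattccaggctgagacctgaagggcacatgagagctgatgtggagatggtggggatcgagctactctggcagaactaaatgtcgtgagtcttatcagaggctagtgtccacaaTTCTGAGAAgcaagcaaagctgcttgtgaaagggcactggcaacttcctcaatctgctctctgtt
They lie at chr4:126024409-126024708 on the plus strand and chr15:78305672-78305971 on the minus strand. The PU.1 match starts 87 bases before the start of Csf3r and the STAT match 15 bases before that of Csf2rb2. Both strands were searched, also for GGGNNTTCC of NF-kB, TGANTCA of AP-1 and TTGCNNAA of C/EBP, and no further match was found in these windows. The promoter of Csf2ra, which was not called with LPS in WT or KO, held a PU.1 match 9 bases before its start. That of Csf2 held a C/EBP match and that of Csf1 held none. Of 32851 promoters of the same length, 10.4% held the PU.1 motif, 8.30% the STAT motif, 5.82% the NF-kB motif, 7.81% the AP-1 motif and 10.8% the C/EBP motif, so matches of this kind are common.

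For each tested member, the 3 genes with the most similar log2 CPM over the 18 libraries were sought among 10139 other genes. Csf2rb was most like Ptprj (Pearson r = 0.988), Clec4a1 (0.988) and Ebi3 (0.986), and Csf3r was most like Cacna1d (0.975), Susd6 (0.974) and Fcgr2b (0.971). Csf1r was most like Kdm2a (0.973), Sash1 (0.970) and Slc26a2 (0.967), and Csf2rb2 was most like Zcchc2 (0.969), Abtb2 (0.968) and Smg8 (0.967). For Csf2ra they were Tifab (0.952), Tiam1 (0.942) and Dock8 (0.941), and for Csf1, at low counts, Frmd4a (0.959), Tmem184b (0.941) and Dync1h1 (0.938). The 18 libraries share the split by LPS, whose part in these correlations was not tested, and no p is given.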

How the data were processed

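RNA was measured in 18 libraries of BMDMs, 3 for each genotype and state, made from rRNA-depleted total RNA with a directional kit. The deposited values are raw counts per protein-coding gene. Per the labels and the study's methods, the authors trimmed reads with cutadapt 1.8.3, aligned them to mm10 with HISAT2 2.1.0 and counted them with featureCounts 1.5.3, keeping well-aligned reads on the sense strand. Reads of near-identical genes can be lost by this, which bears on Csf2rb and Csf2rb2.

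The analysis used R 4.3.3 and edgeR 4.0.16, whose filterByExpr with the 6 groups left 11357 genes (6 of the 8 members), scaled by TMM (factors 0.812 to 1.15). All libraries entered one quasi-likelihood fit with 1 coefficient per group. The 11 comparisons were the LPS response per genotype, the genotype pairs per state and 2 interactions. P values were two-sided and adjusted by Benjamini-Hochberg over all genes, with a call at an adjusted p under 0.05. The SE was the log2 fold change divided by the square root of F. CPM is counts per 1000000 of TMM-scaled library size. Depth ran from 4071084 to 19818043 counts, a 4.87-fold range. P values rest on the spread between the 3 libraries within a group, estimated over all 6 groups in the one fit. The labels tie these libraries to 3 mice per genotype without saying which library came from which mouse. The procedure was tested on simulated data.

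All 8 members and all of the related ligands and receptors are named. From the other lists, called genes with an absolute log2 fold change of at least 1 were named, at most 6 for the LPS response in WT and 3 for resting KO against WT. For each tested member the 3 most correlated genes with average log2 CPM of at least 1 were named. An item that this rule selects is not reported here. Genes named outside this rule were picked with their values in view. The members and lists were chosen with earlier results of these data known. Alternatives were DESeq2 1.42.0, limma 3.58.1 voom with quality weights, other scalings and filters, the compared groups alone, a replicate block and each library left out. The exon lengths in the table equalled the union of Gencode M21 exons for 8013 of 21679 genes. No promoter of Csf2rb or Csf3 is shown.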

Additional observations from a re-analysis of the deposited data

How the results depend on the processing

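Of 162 recomputed counts of members called, 7 were lower and 9 higher than that of the edgeR fit by over 1.5 times, and the others lay within it. In the LPS response of KO, 5 in place of 3 were called without both libraries that stood apart, and 2 to 5 with single libraries left out. Over all genes the calls were 3059 of 11357 with all libraries, 5044 of 11411 without both and 2154 to 4040 with single libraries left out. The 5 called without both libraries include Csf1 and also Csf3, which did not pass the filter when all libraries were used. In resting KO against WT the count of 3 became 1 with the compared groups alone, 5 without both libraries and 0 to 4 with single libraries left out. In resting KO against 3F the count of 4 became 0, 2 and 2 to 5. With LPS, where none was called, KO against WT gave 1 without the filter, 1 by DESeq2, 3 by limma voom with quality weights and 2 with the compared groups alone. KO against 3F gave 1 by limma voom and 1 with the compared groups alone. Over all genes the 544 calls in KO against WT with LPS became 552, 912, 1777 and 1031 in those fits. The 441 in KO against 3F became 1842 and 1661. The cause of these shifts was not tested. In 3F against WT and the interactions no alternative called a member.

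Of 972 recomputed log2 fold changes of members, 32 changed sign, none of them called in the edgeR fit or in the alternative. Scaling by library size alone gave −0.07 for Csf1r in the LPS response of KO. limma voom gave 0.08 for Csf2ra in the LPS response of KO, −0.25 for Csf1 in resting KO against WT, 0.06 for Csf2ra and 0.10 for Csf3r in resting 3F against WT and 0.90 for Csf1 in the interaction of KO. Leaving out both libraries gave 0.04, −0.10, 0.15, 0.09 and 0.79 for the same values. With single libraries left out, Csf1 ran from −0.19 to 2.23 in the LPS response of KO, from −0.13 to 2.28 in resting KO against WT, from −0.74 to 0.01 in resting 3F against WT, from −0.06 to 0.54 in 3F against WT with LPS and from −1.58 to 0.83 in the interaction of KO. Csf2ra ran from −0.35 to 0.12 in the LPS response of KO, from −0.07 to 0.02 in KO against WT with LPS and from −0.17 to 0.15 in resting 3F against WT. Csf2rb2 ran from −0.10 to 0.38 in resting 3F against WT, from −0.11 to 0.37 with LPS and from −0.22 to 0.30 in the interaction of 3F. Csf3r ran from −0.35 to 0.09 in resting 3F against WT.

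Replicate numbers were not taken to pair libraries, since the labels do not say which library came from which mouse. Same-numbered resting and LPS libraries of a genotype deviated together (r over 0.1) in 5 of 9 pairs, with r from 0.03 to 0.32. Same-numbered libraries of different genotypes did so in 2 of 9 pairs at rest (r from −0.29 to 0.16) and 2 of 9 with LPS (r from −0.28 to 0.21). Whether a number stands for one mouse was not tested. With a replicate block, 4, 3 and 5 members were called in the LPS responses of WT, KO and 3F, the same counts as without it. The count in resting KO against WT stayed at 3, and that in resting KO against 3F was 3 in place of 4. For LPS responses and interactions the block was a term per genotype and replicate number. For genotype comparisons it was a term per replicate number shared by the genotypes. The labels give no basis for sharing it, since the genotypes come from different mice. Against 3 counts per resting library, Csf3 was 1.58-fold higher with LPS in WT and 1.37-fold in 3F. With few counts for Csf1 and Csf3 and next to none for Csf2, depth limits what can be said of the factor genes.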
